A study of Mus musculus with 24 samples.

Results

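Schwann cells and satellite glial cells were represented by 8 genes, Foxd3, Sox10, Mbp, Ngfr, S100b, Erbb3, Fabp7 and Cdh19, and their mRNA levels were described in 24 libraries of mouse carotid artery. The genes were taken by name. All 8 were found among the 55421 genes of each count table, and all 8 were among the 25033 genes that passed the filter on low counts. Foxd3 was already known from an earlier analysis of these data to be higher with E4 than with E2, and the 8 genes, listed by name, were chosen by the higher level of Foxd3 with E4 than with E2 together with what is known of these cells. The comparison of E4 with E2 is therefore given as a description for all 8 genes, with no p-value, as are the values of Foxd3 in E4 against OVX and in TAM against E2. The 4 groups of 6 libraries were named OVX, E2, E4 and TAM after the sample titles, and each library carried its own animal number. OVX mice had been ovariectomized and carried placebo, E2 mice received estradiol, E4 mice received estetrol, and TAM mice received tamoxifen, a drug that acts as an agonist or an antagonist of the estrogen receptor depending on the tissue. According to the study's methods the OVX, E2 and E4 mice were all ovariectomized females with uninjured arteries, and the sources used here do not say this of the TAM mice. The labels give the C57BL/6 strain, an age of 9 weeks and, for the series, 3 weeks of treatment, whereas the study's methods give a shorter course. For the 6 E4 libraries the treatment field reads placebo while the title reads E4, and the title decided their group.

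Schwann cells ensheath the axons of peripheral nerves, either as myelinating cells around single large axons or as non-myelinating cells around bundles of thin ones. Satellite glial cells wrap the cell bodies of neurons in sensory and autonomic ganglia. Both derive from the neural crest. The carotid artery is supplied by sympathetic axons whose cell bodies lie in cervical ganglia close to the carotid bifurcation, and peripheral nerves run in the tissue around the vessel. In whole tissue, fewer cells of a type and less RNA per cell cannot be told apart, which holds for every value below.

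Promoter sequences were at hand for 4 of the 8 genes (Foxd3, Ngfr, S100b and Fabp7) in the RefSeq table for GRCm38.p6. Shown here are those of Foxd3, the transcription factor gene known to differ between the estrogens, and of the neurotrophin receptor gene Ngfr and the fatty acid-binding protein gene Fabp7, which were low together in 2 libraries. They are printed 5′ to 3′ on the gene's strand, up to the base before the transcription start of both RefSeq and GENCODE. Capitals mark GGTCA, a single arm of the palindromic estrogen response element, or its reverse complement.
Foxd3, chr4:99656049-99656298, plus strand: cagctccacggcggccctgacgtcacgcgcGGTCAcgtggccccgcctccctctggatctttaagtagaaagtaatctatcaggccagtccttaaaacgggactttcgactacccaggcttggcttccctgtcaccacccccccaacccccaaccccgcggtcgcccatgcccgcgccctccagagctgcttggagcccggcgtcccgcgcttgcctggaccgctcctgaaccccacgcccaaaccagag
Ngfr, chr11:95587736-95587948, minus strand: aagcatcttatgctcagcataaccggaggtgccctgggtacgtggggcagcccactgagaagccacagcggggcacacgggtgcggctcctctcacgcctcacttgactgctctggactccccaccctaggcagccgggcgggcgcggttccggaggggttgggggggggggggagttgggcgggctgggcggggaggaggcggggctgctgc
Fabp7, chr10:57784673-57784880, plus strand: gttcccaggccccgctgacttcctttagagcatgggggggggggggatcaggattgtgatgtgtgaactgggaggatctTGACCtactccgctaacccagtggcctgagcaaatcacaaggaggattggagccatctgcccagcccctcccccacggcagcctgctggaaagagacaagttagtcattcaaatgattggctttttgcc
On either strand of the 300-base windows of these 4 genes, GGTCA occurred in Foxd3 and in Fabp7 and was absent from Ngfr and S100b. It occurs in 40.5% of the 32851 promoter windows of that length. The full element (GGTCA and TGACC with 3 bases between them, which contains the single arm) was in none of the 4 windows and in 0.0700% of all. The SOX core motifs ACAAAG (18.7% of all windows) and ACAATG (12.6%) were also in none of the 4. G and C made up 65.6% of the printed Foxd3 sequence, 70.9% of that of Ngfr and 56.2% of that of Fabp7.

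Foxd3 (ENSMUSG00000067261) encodes a forkhead transcription factor of neural crest cells and early glia. It lies on the plus strand of chromosome 4, from 99656299 to 99658622 in GRCm38. Sox10 (ENSMUSG00000033006, chromosome 15, 79154908 to 79165240, minus strand) encodes the transcription factor that specifies and maintains peripheral glia. Erbb3 (ENSMUSG00000018166, chromosome 10, 128567523 to 128589652, minus strand) encodes the neuregulin receptor through which axons control Schwann cell survival and myelination. Ngfr (ENSMUSG00000000120, chromosome 11, 95568818 to 95587735, minus strand) encodes the low-affinity neurotrophin receptor p75, which is made by glia and also by sympathetic neurons. Mbp (ENSMUSG00000041607, chromosome 18, 82475146 to 82585637, plus strand) encodes myelin basic protein. Cdh19 (ENSMUSG00000047216, chromosome 1, 110888326 to 110977584, minus strand) encodes a cadherin of Schwann cell precursors and mature Schwann cells. S100b (ENSMUSG00000033208, chromosome 10, 76253853 to 76261159, plus strand) encodes a calcium-binding protein of Schwann and satellite cells. Fabp7 (ENSMUSG00000019874, chromosome 10, 57784881 to 57788450, plus strand) encodes a brain-type fatty acid-binding protein known from satellite glia of ganglia and from immature glia. An 89-base microRNA gene on the same strand, Gm23366, lies within the exon of Foxd3 and takes 3.83% of its 2324 exon bases. No other exon overlaps were found for the 8 genes.

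Library totals were 24647246 to 64221401 counts, with a median of 45156106, and the lowest total was that of E4 C38. The smallest count was 77 for Foxd3 (E2 C8), 292 for Ngfr and 488 for Fabp7, and at least 824 for the other 5. Levels are given as CPM, the count relative to the library size after TMM scaling. OVX C5 and TAM C35 stood apart before any comparison of groups. In both, all 16 genes of a sympathetic neuron list lay below the other 22 libraries, and their summed level was 72.4 CPM in OVX C5 and 341 CPM in TAM C35, against 3041 to 12114 CPM in the other 22. Over all tested genes, 21.5% lay below the other 22 libraries in OVX C5 and 20% in TAM C35. This was known from the earlier analysis. The main results are therefore also given without these 2 libraries where they change a call, a direction or the size of a value.

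The 8 genes were unequally abundant. On the scale of CPM per kilobase of exon, the mean level over 24 libraries was 183 ± 88.4 (SD, n = 24) for Ngfr and 145 ± 54.7 for Fabp7. Mbp followed at 54.2 ± 26.7, S100b at 42.5 ± 7.19 and Cdh19 at 32.5 ± 7.40. Sox10 stood at 20.3 ± 6.50, Erbb3 at 16.3 ± 4.25 and Foxd3 at 4.14 ± 1.82. The SDs of Ngfr and Fabp7 overlapped, as did those of neighbours from Mbp down to Erbb3. The steps from Fabp7 to Mbp and from Erbb3 to Foxd3 were wider than the spread. Since all genes were measured in the same libraries, overlapping SDs do not decide their order. Within each of the 24 libraries, Cdh19 lay above Sox10 and Sox10 above Erbb3 on this scale. The variation between libraries also differed from gene to gene. S100b had a coefficient of variation of 16.9% over the 24 libraries, the smallest of the 8, and Mbp had 49.3%, followed by Ngfr with 48.3%. Without OVX C5 and TAM C35, Mbp had 48.3% and Ngfr 36.6%, with Foxd3 between them at 44.1%. By the highest over the lowest library, Ngfr spanned 168-fold and Mbp 9.55-fold, and without OVX C5 and TAM C35 Ngfr spanned 4.28-fold. Markers of oligodendrocytes, the myelinating cells of the central nervous system, summed to 0.283 to 1.33 CPM over 6 genes, with Klk6 at 0 in every library and Olig2 at 0 in 18 of 24. A list of 7 melanocyte genes, another neural crest derivative that uses Sox10, summed to 16.7 to 26.3 CPM, most of it Mitf, and the pigment enzyme Tyr was at 0 in 14 libraries.

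**Figure D1:**
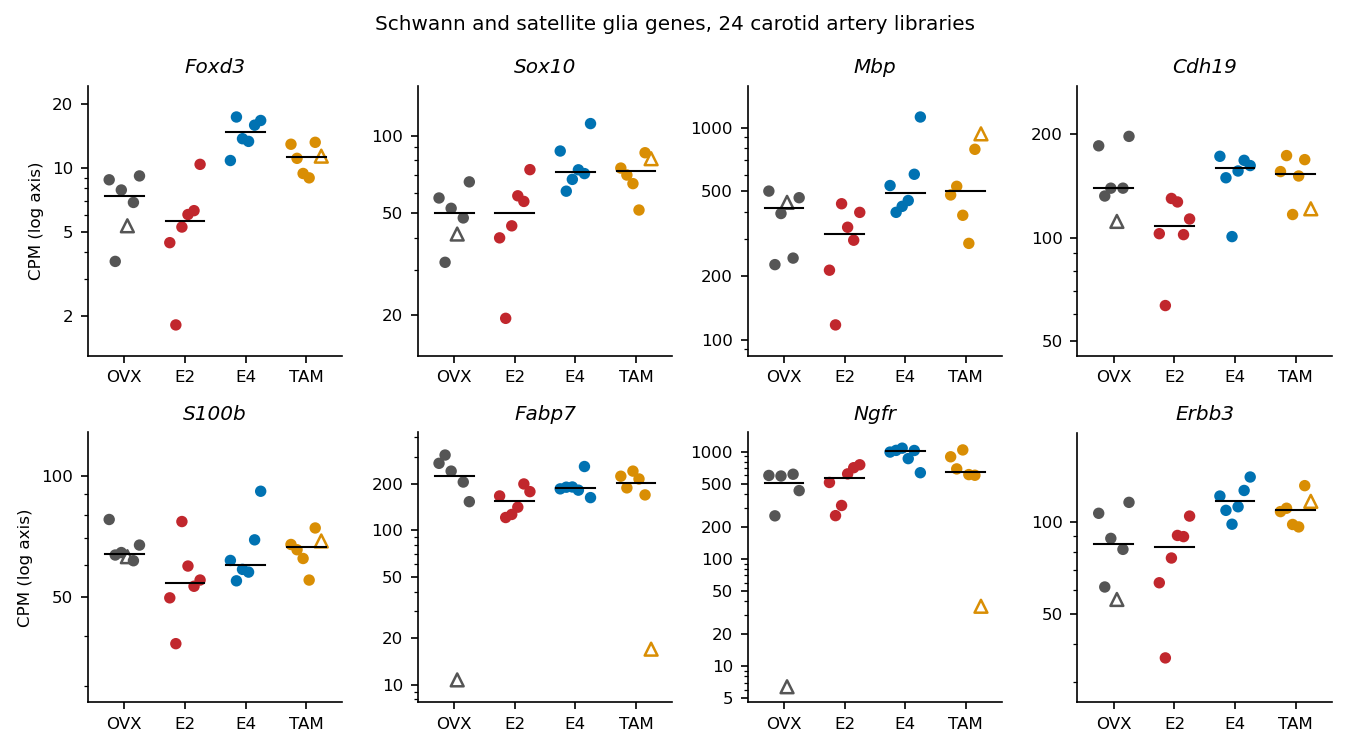
CPM (log axis, a separate range per panel) of the 8 genes in the 6 libraries of each group; dots are libraries, lines are group medians, and open triangles are OVX C5 and TAM C35. Foxd3 lies between 10.8 and 17.4 CPM with E4, above all OVX and E2 libraries, and in Ngfr and Fabp7 the 2 triangles fall far below every other library.

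Foxd3 was the least abundant of the 8, and its separation of E4 from E2 is what it was chosen by. In OVX its lowest, median and highest CPM were 3.62, 7.37 and 9.17. In E2 they were 1.82, 5.65 and 10.4. In E4 they were 10.8, 14.8 and 17.4, and in TAM 8.98, 11.2 and 13.2. Each E4 library was above each OVX and each E2 library, while TAM overlapped every other group. In Sox10, too, the E4 and TAM medians were above those of OVX and E2, with more overlap. Its lowest, median and highest CPM were 32.1, 50.0 and 66.0 in OVX and 19.5, 50.0 and 73.7 in E2. They were 60.8, 72.3 and 111 in E4 and 51.3, 72.5 and 85.7 in TAM. The medians of OVX and E2 were nearly equal, as were those of E4 and TAM, and the E4 range began within the upper part of the OVX range.

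Among the receptors, Ngfr was separated between E4 and OVX. Its lowest, median and highest CPM were 6.41, 512 and 615 in OVX, the lowest being OVX C5, and 253, 567 and 753 in E2. They were 635, 1007 and 1076 in E4 and 36.1, 650 and 1036 in TAM, the lowest being TAM C35. All 6 E4 libraries were above all 6 OVX libraries. Erbb3 ranged from 55.8 to 116 CPM in OVX (median 85.1), from 35.9 to 105 in E2 (median 83.1), from 98.6 to 141 in E4 (median 117) and from 96.6 to 132 in TAM (median 110). Its E4 and TAM libraries covered nearly the same range, which overlapped the upper end of OVX and E2.

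Mbp is the marker of myelin among the 8 genes. It ranged from 226 to 502 CPM in OVX (median 419), from 118 to 438 in E2 (median 317), from 399 to 1122 in E4 (median 493) and from 285 to 935 in TAM (median 505). The highest values were those of E4 C39 and TAM C35, so that TAM C35, in which the neuronal transcripts were low, was the library with the second highest Mbp of the 24. Cdh19 ranged from 111 to 197 CPM in OVX (median 139), 63.5 to 130 in E2 (median 108), 101 to 172 in E4 (median 159) and 117 to 173 in TAM (median 153). E2 was the lowest group in median. S100b ranged from 61.4 to 77.8 CPM in OVX (median 63.9), 38.2 to 76.9 in E2 (median 54.0), 54.7 to 91.4 in E4 (median 60.0) and 55.0 to 74.1 in TAM (median 66.4), and all groups overlapped.

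Fabp7 had its highest group median in OVX. It ranged from 10.7 to 307 CPM in OVX (median 224), from 121 to 200 in E2 (median 154), from 163 to 259 in E4 (median 188) and from 17.0 to 242 in TAM (median 202). Without OVX C5 and TAM C35 the OVX range was 153 to 307 and the TAM range 170 to 242. All groups overlapped.

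In the 2 libraries that stood apart, the 8 genes had unequal levels. Ngfr and Fabp7 lay below the other 22 libraries in both, and the other 6 genes did so in neither, whereas 15.2% of all tested genes lay below in both. The 2 libraries thus had many low genes, and the count of 2 of 8 is a description. In OVX C5, Ngfr was 92.3-fold and Fabp7 22.6-fold below the median of the other 5 OVX libraries. In TAM C35, Ngfr was 19.1-fold and Fabp7 12.7-fold below the median of the other 5 TAM libraries. By contrast, Mbp was at 1.13 times that median in OVX C5 and at 1.94 times in TAM C35, and Sox10 at 0.794 and 1.16 times. Foxd3, Erbb3, S100b and Cdh19 were at 0.630 to 0.977 times the median in OVX C5 and at 0.780 to 1.08 times in TAM C35. Of the 16 genes of a myelin list, 0 lay below the other 22 libraries in either. Of 12 other glial genes, 6 did so in OVX C5 and 3 in both libraries: Gap43, a growth cone protein of regenerating axons and of Schwann cells, and the adhesion molecules L1cam and Chl1. Both libraries also differed in other cell types, since all 6 smooth muscle genes of a list were above the other 22 libraries in TAM C35 and 5 of 7 adipocyte genes were above them in OVX C5. The part of these differences in the low Ngfr and Fabp7 was not tested.

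Other libraries moved most of the 8 genes at once. E2 C8 was among the 2 lowest of 24 libraries in 6 of the 8 genes, Fabp7 and Ngfr being the exceptions, for which OVX C5 and TAM C35 were the lowest. Its summed level of the 8 genes was 650 CPM, the lowest of all. E4 C39 was among the 2 highest in 5 of the 8, and its summed level of 2442 CPM was the highest. The sums in OVX were 738 to 1808 CPM, in E2 650 to 1687, in E4 1908 to 2442 and in TAM 1388 to 2035.

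**Figure D2:**
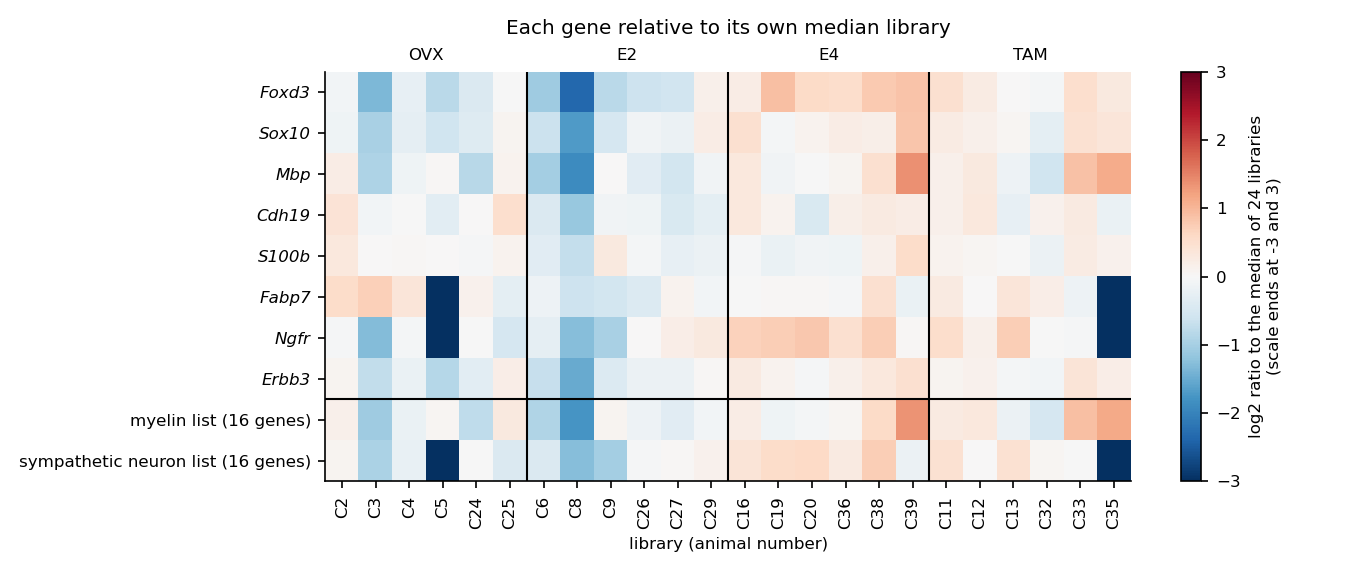
Log2 ratio of each gene (rows) to its own median over 24 libraries (columns, by group and animal number), and of the means of a myelin list and a sympathetic neuron list below the line; blue is lower, red is higher, and the scale ends at -3 and 3. E2 C8 is blue in all rows, and OVX C5 and TAM C35 are dark blue in Fabp7, Ngfr and the sympathetic neuron list.

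To ask which of the 8 genes the treatments changed, each group was compared with OVX in a fit of all 24 libraries (the quasi-likelihood test of edgeR, with p-values adjusted by Benjamini-Hochberg over all genes tested). A gene was called at an adjusted p under 0.05 together with an absolute log2 fold change over 1, the thresholds of the study. Log2 fold changes are followed by their standard errors.

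E2 changed none of the 8 genes by these thresholds, against 1.27% of all genes tested. The 8 log2 fold changes lay between -0.50 and 0.34, their median was -0.27, and 1 of 8 was above 0, as were 51.3% of all genes tested. The median over all genes was 0.0060. The highest value, that of Ngfr, was 0.081 without OVX C5 and TAM C35, so that the 8 then lay between -0.60 and 0.081. Only Cdh19 had an unadjusted p under 0.05, with a log2 fold change of -0.50 ± 0.17 and an adjusted p of 0.0949. DESeq2 also called 0 of the 8. Without OVX C5 and TAM C35, Cdh19 was at -0.57 ± 0.16 (adjusted p = 0.0321) and its E2 libraries all lay below the OVX libraries, as in 1.69% of all genes. In the same fit Fabp7 was at -0.60 ± 0.16 (adjusted p = 0.0243), against -0.35 ± 0.49 (adjusted p = 0.841) with all libraries. Neither passed the fold threshold, which 1.54% of all genes did in that fit together with the adjusted p. With all libraries, 4.16% of all genes had an adjusted p under 0.05 for E2. In the first and the second number series of animals taken alone, Cdh19 was at -0.53 ± 0.26 and -0.57 ± 0.17 (adjusted p = 0.523 and 0.311). Fabp7 was at -0.59 ± 0.68 and -0.060 ± 0.71 (adjusted p = 0.884 and 0.995), neither of which could be told from 0. The first series had 4 OVX libraries, among them OVX C5, and the second had 2.

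With E4, Foxd3, Ngfr, Sox10, Mbp and Erbb3 had log2 fold changes of 0.48 to 1.17 against OVX, and Sox10 was the one of them other than Foxd3 with an adjusted p under 0.05, while Cdh19, S100b and Fabp7 had log2 fold changes near 0. By the thresholds 1 of the 8 genes was called, Foxd3, against 2.51% of all genes tested, and 0.823% for genes called higher. This contrast shares the E4 libraries by which Foxd3 was known, so nothing is read from that count. Its log2 fold change was 1.08 ± 0.26, a 2.11-fold difference. Sox10 rose by 0.67 ± 0.23 with an adjusted p of 0.0366, without passing the fold threshold, and 22% of all genes had an adjusted p under 0.05. Its adjusted p was above the threshold, at up to 0.0976, when OVX C3, C5 or C24 or E4 C16 or C39 was left out, and under 0.05 in the other 19 of 24 such fits. Erbb3 was at 0.48 ± 0.20 (adjusted p = 0.0801) and Mbp at 0.64 ± 0.32 (adjusted p = 0.157). Mbp was at 0.35 without E4 C39, and at 0.20 and 1.04 in the first and the second number series. Cdh19 (0.0076 ± 0.17), S100b (-0.015 ± 0.13) and Fabp7 (-0.024 ± 0.48) differed least. The median of the 8 log2 fold changes was 0.56, against -0.014 over all genes, and 6 of 8 were above 0, against 48.4% of all genes. The Foxd3 and Ngfr libraries of E4 lay wholly above those of OVX, as did 5.24% of all genes tested.

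Ngfr had the largest of these log2 fold changes, 1.17 ± 0.62, but with an adjusted p of 0.175. Leaving out OVX C5 alone gave 0.92 (adjusted p = 0.166), and leaving out TAM C35 alone gave 1.18 (adjusted p = 0.0952). Without both it was at 0.92 ± 0.26 (adjusted p = 0.0171), and Sox10 was at 0.63 ± 0.24 (adjusted p = 0.0565). Foxd3 was then at 1.02 ± 0.27. In that fit 1 of the 8 genes, Foxd3 itself, lay past the thresholds, against 2.3% of all genes, and nothing is read from this count either. The sympathetic neuron list moved with these genes: all 16 of its genes had a log2 fold change above 0 with E4, with a median of 0.91 (0.66 without OVX C5 and TAM C35). With the mean of that list as a covariate Ngfr was at 0.20 ± 0.082 (adjusted p = 0.0850), and Foxd3 at 0.94 ± 0.26, under the fold threshold, so that 0 of the 8 were called. Fabp7 was at -0.87 ± 0.19 with this covariate (adjusted p = 0.00354), in a fit that holds OVX C5 and TAM C35, and at -0.26 ± 0.16 (adjusted p = 0.245) without these 2 libraries and without the covariate. With the covariate it was also lower in E2 (-0.56 ± 0.18, adjusted p = 0.0470) and in TAM (-0.69 ± 0.18, adjusted p = 0.0279) than in OVX. Without OVX C5 and TAM C35 and without the covariate, Fabp7 was at -0.60 ± 0.16 in E2 (adjusted p = 0.0243). In TAM it was then at -0.18 ± 0.17 (adjusted p = 0.550). Without OVX C3 Foxd3 was at 0.95, and within the first and the second number series it was at 1.12 and 0.94 and not called. Sox10 was at 0.65 and 0.59 in the 2 series, with an adjusted p of 0.114 and 0.412.

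TAM had 0 of the 8 genes called, against 0.308% of all genes tested. Foxd3 and Sox10 had an unadjusted p under 0.05, and their log2 fold changes were 0.68 ± 0.26 (adjusted p = 0.140) and 0.53 ± 0.22 (adjusted p = 0.182). Ngfr was at 0.63 ± 0.61, Mbp at 0.58 ± 0.32 and Erbb3 at 0.38 ± 0.19, and Cdh19, S100b and Fabp7 were between -0.17 and -0.015. The median was 0.45, against -0.0033 over all genes, and 5 of 8 were above 0, against 49.4% of all genes. Ngfr was at 1.25 in the first and -0.33 in the second number series, and at 0.12 ± 0.077 with the neuron covariate. Without OVX C5 and TAM C35, Ngfr was at 0.63 ± 0.27 (adjusted p = 0.185) and Sox10 at 0.45 ± 0.24 (adjusted p = 0.283), and only Foxd3 and Ngfr had an unadjusted p under 0.05. DESeq2 called 0 of the 8 as well.

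**Figure D3:**
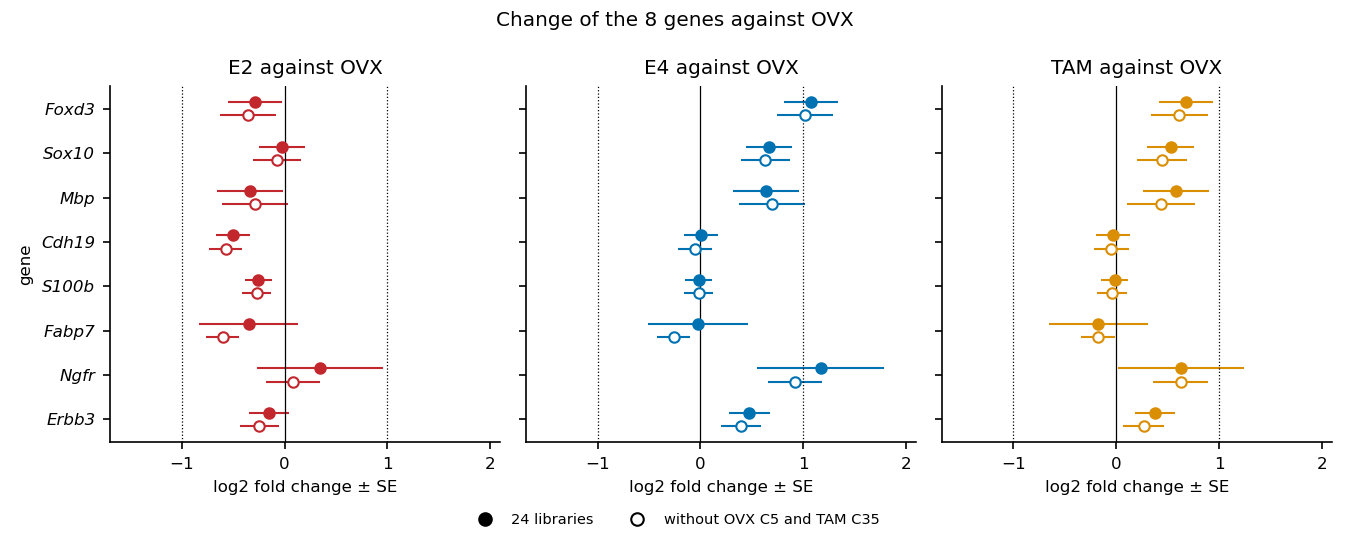
Log2 fold change against OVX with its standard error (bars) for the 8 genes, from the fit of 24 libraries (filled) and without OVX C5 and TAM C35 (open); the dotted lines mark a log2 fold change of -1 and 1. With E4, Foxd3 (1.08) and Ngfr (1.17) are past the upper line in the fit of 24 libraries, and in Ngfr and Fabp7 the bars shorten when the 2 libraries are left out.

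Comparisons between the treatments share libraries with those against OVX. With E4 as compared with E2, all 8 genes had a log2 fold change above 0, which held for 48.3% of all genes tested. The differences were 1.36 ± 0.27 for Foxd3, 0.97 ± 0.33 for Mbp, 0.83 ± 0.62 for Ngfr and 0.69 ± 0.23 for Sox10. They were 0.63 ± 0.20 for Erbb3, 0.51 ± 0.17 for Cdh19, 0.33 ± 0.49 for Fabp7 and 0.24 ± 0.13 for S100b. Foxd3 alone was past a log2 fold change of 1, as were 4.01% of all genes, and Mbp came closest to this limit from below. The E4 libraries of Foxd3 all lay above its E2 libraries, as in 2.02% of all genes. Foxd3 was chosen by this contrast, so nothing is read from either share. In the first and the second number series Foxd3 was at 1.86 and 1.04, Sox10 at 1.05 and 0.47, Erbb3 at 0.91 and 0.43 and Ngfr at 1.51 and 0.29. E2 C8 had the lowest Foxd3 and Mbp of the 24 libraries, and leaving out any one library gave differences of 1.18 to 1.62 in Foxd3. With the sympathetic neuron list as a covariate, Ngfr was at 0.035 ± 0.077 and Fabp7 at -0.31 ± 0.18, whereas Foxd3 was at 1.30 ± 0.25, Mbp at 1.04 ± 0.31 and Sox10 at 0.67 ± 0.22.

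TAM as compared with E2 gave log2 fold changes of 0.18 to 0.97, all above 0 against 50.5% of all genes, and 0 of the 8 were called, against 1.65% of all genes tested. In the second number series alone, which holds TAM C35, Ngfr was at -0.73 and Fabp7 at -0.36, and with the neuron covariate they were at -0.047 and -0.13. Without OVX C5 and TAM C35 they were at 0.55 ± 0.26 (adjusted p = 0.148) and 0.42 ± 0.16 (adjusted p = 0.0771). Cdh19, at 0.47 ± 0.17 (adjusted p = 0.0901), was at 0.53 ± 0.16 (adjusted p = 0.0347) when OVX C5 and TAM C35 were left out. The highest was that of Foxd3, just below the fold threshold, and it passed the threshold without any one of E2 C29, TAM C13 and TAM C32. TAM as compared with E4 gave -0.54 to -0.00080, so that 0 of 8 were above 0, against 49.2% of all genes, with 0 of the 8 called, against 0.196% of all genes tested. Without OVX C5 and TAM C35 the values were -0.41 to 0.083, and 2 of 8 (Fabp7 and Cdh19) were above 0, as with the neuron covariate (0.18 and 0.036). In the first number series alone 4 of 8 were above 0, Mbp at 0.030, S100b at 0.15, Fabp7 at 0.20 and Cdh19 at 0.066. With all libraries the smallest adjusted p of the 8 was 0.699 and 0 had an unadjusted p under 0.05. The order of the group medians was E4, TAM, OVX and E2 for Foxd3, Erbb3 and Cdh19. No difference between TAM and E4 was detected in the 8 genes at this spread.

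Genes that belong to the same cells or pathways were followed in lists. The myelin list held 16 genes of myelinating Schwann cells, among them the myelin protein gene Pmp22 (280 CPM per kilobase of exon). Of these, 0 were called in any comparison with OVX. All 16 had a log2 fold change above 0 with E4 (median 0.65) and with TAM (median 0.65). Without OVX C5 and TAM C35 the medians were 0.75 with E4 and 0.46 with TAM. With E2 the median was -0.25, and 2 of 16 were above 0. The 12 other glial genes, led by Gap43 (161), the adhesion molecule Cadm4 (44.0) and L1cam (36.1), had 0 called, with medians of -0.13 with E2, 0.47 with E4 and 0.39 with TAM, or -0.24, 0.31 and 0.37 without OVX C5 and TAM C35. One of them, the transcription factor Sox2 of glial precursors, was at 0.998 with E4 (adjusted p = 0.0159), just under the fold threshold.

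Around the receptor Erbb3, 11 genes of the neuregulin and ErbB pathway were listed, led by the ErbB inhibitor Errfi1 (46.0), the neuregulin-processing protease Bace1 (19.4) and the ErbB2-binding protein Erbin (10.9), and 0 were called against OVX. The ligands Nrg1, Nrg2 and Nrg3, which axons supply to Schwann cells, lay below the other 22 libraries in both OVX C5 and TAM C35, as Ngfr did. The ligand Nrg4 did not: it lay above them in OVX C5 (53.3 CPM, against 19.1 to 42.7) and within their range in TAM C35. The co-receptor gene Erbb2 did not lie below them in either library. Around Ngfr, 12 of 13 genes of the neurotrophin pathway were tested, among them Maged1 (81.7) and Bex3 (50.5), which encode proteins that bind p75. With E4 the neurotrophin gene Ntf3 fell, just past the fold threshold (adjusted p = 0.00305), and Lingo1, which encodes a p75 co-receptor, rose by 1.26 on the log2 scale (adjusted p = 0.0471). These were the 2 genes called, and 0 were called with E2 or TAM. Of the 24 fits that left out 1 library each, 16 called Ntf3, whose log2 fold change moved across the threshold between -1.10 and -0.91 with an adjusted p of at most 0.00998, and 7 called Lingo1. Of 12 genes of neural crest and repair Schwann cells, 10 were tested, led by Jun (30.4), Tfap2b (7.73) and Ets1 (6.12), and 1 was called: Artn, a ligand of the glial cell line-derived neurotrophic factor family, fell with E4 by 1.42 on the log2 scale (adjusted p = 0.00225). Pax3 and Shh were each at 0 in 14 of 24 libraries.

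The sympathetic neuron list was led by the noradrenaline transporter gene Slc6a2 (408 CPM per kilobase), the noradrenaline-synthesizing Dbh (260) and Uchl1 (225), levels above those of all 8 glial genes. With E4, 2 of its 16 genes were called, Gata3 (log2 fold change 1.22, adjusted p = 0.0281) and Chga (3.01, adjusted p = 0.0117), and 0 were called with E2 (median 0.19, 16 of 16 above 0) or TAM (median 0.51). Without OVX C5 and TAM C35 the E2 median was -0.066, with 4 of 16 above 0. The value of Chga, a secretory granule gene also of parathyroid cells, turned on E4 C38, with 2201 CPM against 80.9 to 166 CPM in the other 5 E4 libraries. Without E4 C38 it was at 1.07 (adjusted p = 0.156) and not called. E4 C38 also held 2980 CPM summed over the thyroid and parathyroid list, against 4.71 to 132 CPM in the other 23 libraries. Gata3 was not called without E4 C38 or without OVX C3. Lists of the other cells of the vessel and its surroundings moved in their own ways. Of 7 B cell genes, 6 were called lower with E4, among them Ms4a1, Cd79a, Cd79b, Pax5 and Blk (log2 fold changes of -2.57 to -1.34), 2 were called lower with TAM (Ms4a1 and Cd79b) and 0 with E2. Without OVX C3, Cd79a and Blk were not called with E4. With TAM, Ms4a1 was called in 16 and Cd79b in 5 of the 24 fits that left out 1 library each. Of 7 adipocyte genes, led by Cfd, Adipoq and Ucp1, 2 were called lower with E4 (Lep at -1.33 and Ucp1 at -1.09 on the log2 scale), 1 lower with TAM (Lep at -1.49) and 1 higher with E2 (Cfd at 1.26). Ucp1 was not called without OVX C5, with or without TAM C35. Of 6 endothelial genes, led by Pecam1, Cdh5 and Tek, Vwf was called higher with E2 (1.22) and with E4 (1.27). Of 6 cartilage genes, 4 were tested and led by Comp, Acan and Col2a1, and Comp was called lower with E2, just past the fold threshold, and Matn3 lower with E4 (-1.97). Matn3 was near the floor in E4, at 0 to 0.165 CPM. Comp was not called without OVX C5 and TAM C35. The 6 smooth muscle genes, led by Acta2, Tagln and Myh11, had 0 called against OVX, as did the melanocyte list (4 of 7 tested, led by Mitf, Pmel and Mlana) and the oligodendrocyte list (2 of 6 tested, Mog and Opalin). The thyroid and parathyroid list (4 of 6 tested) also had 0 called, and its tested genes were led by Slc5a5, Tshr and Tg. Pth, the parathyroid hormone gene, was at 0 in 21 of 24 libraries and reached 2904 CPM in the others. The part of any of these cell types in the values of the 8 glial genes was not tested.

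To see which of the 8 genes varied with myelin and which with neuronal transcripts, each was correlated with the means of the myelin list and of the sympathetic neuron list over the 22 libraries other than OVX C5 and TAM C35. All points share library scaling, and these are 16 relations with permutation tests and Benjamini-Hochberg adjustment. The permutations take no account of the groups, so values of r with each group's mean removed are given as well. The smallest p the permutations can give was 1e-05. Mbp followed the myelin list with Pearson's r = 0.991 and Spearman's rho = 0.979 (permutation p = 1e-05 for both, adjusted p = 3.2e-05 and 4e-05). Without the libraries farthest from the median, E2 C8 and E4 C39, r was 0.981, it was 0.993 and 0.994 in the first and the second number series, and 0.991 with group means removed. Ngfr followed the sympathetic neuron list, with r = 0.977 and rho = 0.924 (permutation p = 1e-05 for both, adjusted p = 3.2e-05 and 4e-05). It kept r = 0.966 without E2 C8 and E2 C9, had 0.983 and 0.942 in the 2 series, and 0.969 with group means removed. The crossed relations were weaker: Mbp with the neuron list had r = 0.489 and rho = 0.371 (permutation p = 0.0214 and 0.0906, adjusted p = 0.0293 and 0.121). Its r was 0.157 after removal of group means, and 0.698 in the first and 0.00843 in the second series. Ngfr with the myelin list also had r = 0.489, with rho = 0.316 (permutation p = 0.0220 and 0.150, adjusted p = 0.0293 and 0.184). Here r was 0.203 after removal of group means, and 0.685 in the first and 0.0409 in the second series.

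Of the remaining genes, Sox10 and Erbb3 followed the myelin list with r = 0.912 and 0.909 and rho = 0.822 and 0.888 (permutation p = 1e-05 for each, adjusted p = 3.2e-05 for r and 4e-05 for rho), their r was 0.827 and 0.870 without E2 C8 and E4 C39, and 0.872 and 0.876 with group means removed. With the neuron list, Sox10 had r = 0.711 and rho = 0.557 (permutation p = 0.00041 and 0.00782, adjusted p = 0.000656 and 0.0139) and Erbb3 had r = 0.729 and rho = 0.506 (permutation p = 0.00027 and 0.0174, adjusted p = 0.00054 and 0.0279). Their r with the neuron list was 0.4998 and 0.543 with group means removed. It was 0.879 and 0.853 in the first series, but -0.021 and 0.101 in the second. S100b had r = 0.815 and rho = 0.735 with the myelin list (permutation p = 2e-05 and 0.00017, adjusted p = 4.57e-05 and 0.000457). Cdh19 had r = 0.715 and rho = 0.721 with it (permutation p = 0.00033 and 0.00018, adjusted p = 0.000587 and 0.000457). Without those libraries r was 0.590 for S100b and 0.571 for Cdh19, and with group means removed 0.878 and 0.745. With the neuron list S100b had r = 0.170 and rho = -0.043, and Cdh19 had r = 0.387 and rho = 0.145 (permutation p from 0.0755 to 0.848, adjusted p from 0.0862 to 0.848). Foxd3 followed both, with r = 0.821 for the myelin list and 0.824 for the neuron list and rho = 0.711 and 0.724, given with no p since the same libraries chose this gene. With each group's mean removed, the values of r were 0.757 and 0.652. The relation with the neuron list had r = 0.928 in the first and 0.368 in the second series. Fabp7 had no detectable relation with the myelin list, with r = 0.0299 and rho = -0.121 (permutation p = 0.896 and 0.589, adjusted p = 0.896 and 0.629). With the neuron list it had r = 0.415 and rho = 0.465 (permutation p = 0.0551 and 0.0311, adjusted p = 0.0678 and 0.0453), so that rho passed the threshold and r did not. This r was 0.0157 without E2 C8 and E2 C9, although within the second series it was 0.758. It was 0.384 in the first series, which holds E2 C8 and E2 C9, and 0.475 with each group's mean removed.

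**Figure D4:**
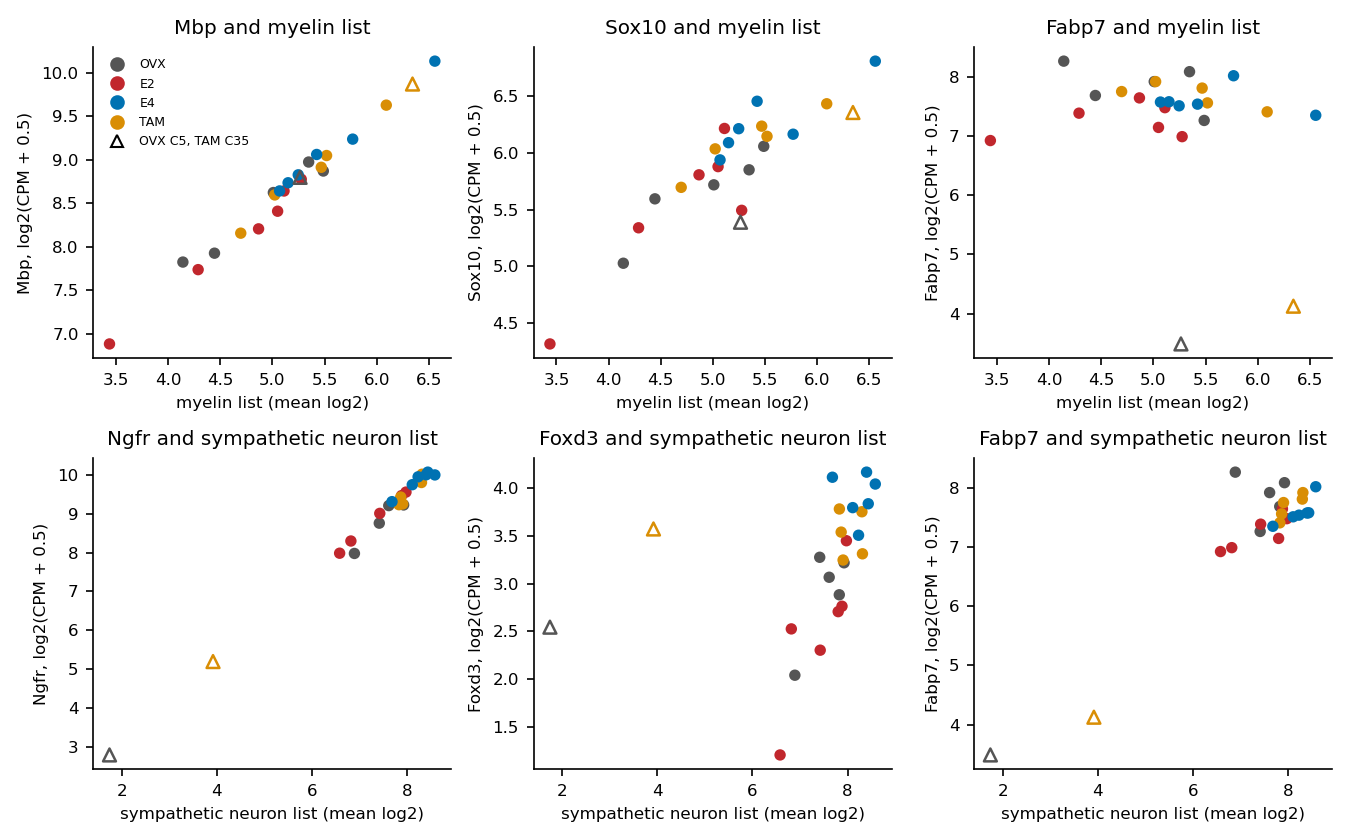
Log2(CPM + 0.5) of single genes (vertical) against the mean log2(CPM + 0.5) of the myelin list (upper row) or the sympathetic neuron list (lower row) in 24 libraries, coloured by group, with OVX C5 and TAM C35 as open triangles. Mbp rises along the myelin list with r = 0.991 over the 22 dots, and Ngfr along the neuron list with r = 0.977; at the triangles Ngfr and Fabp7 are low and Foxd3 is not.

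Among 19518 other genes with a mean of at least 1 CPM, those whose pattern was most like the mean of the 8 genes were ranked by Spearman's rho. Over 24 libraries they were Kcna6 and Hepacam (rho = 0.946 for both), followed by Igsf11, Nfasc, Hspa12a, Tmem229a, Grik3 and Shroom2, down to 0.910. Over 22 libraries, without OVX C5 and TAM C35, they were Gm17035 (0.975), Ndrg1, Tns3, Gm2895, Aatk, Hepacam, Kcna6 and Kcnk1 (0.927). Hepacam and Kcna6 were named by both rankings.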

How the data were processed

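RNA was isolated from carotid arteries, and stranded mRNA libraries were read as 150-base pairs, per the labels. The authors deposited estimated counts per gene and library, without normalization. The submitters' processing notes name bcl2fastq 2.17, Trim Galore, Bowtie2, featureCounts and the builds mm10 and GRCm38. The strand setting of the counting is not given in the sources used here. Between 8.87% and 9.8% of the values per library carried decimals, including those of Foxd3 in 9 and of Erbb3 in 14 of 24 libraries, and all were rounded to whole numbers. Names and coordinates come from GENCODE M21.

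The 24 libraries entered a single edgeR 4.0.16 fit in R 4.3.3 (quasi-likelihood test, TMM scaling, default filter on low counts). The standard error is the absolute log2 fold change divided by the square root of F. p-values measure the spread between animals. Alternatives used DESeq2 1.42.0, other scalings, filters, thresholds, subsets of libraries, the number series (animal numbers up to 20, or from 24) and the sympathetic neuron list as a covariate. List means used log2(CPM + 0.5). Correlations and figures were made in Python 3.11.15 with scipy 1.17.1, with 100000 permutations, 2-sided. The procedure was tested on simulated data. The 8 genes and all 14 lists were chosen with earlier results of these data known. Of each other list the text names the 3 tested genes with the highest CPM per kilobase and those called against OVX, except that some genes are not reported here. Ntrk2, Egfr and other list members with an adjusted p under 0.05 alone are not described. Genes singled out for their low level in OVX C5 and TAM C35, Sox2, Erbb2, Nrg4 and genes at 0 in many libraries were chosen after their values were seen. Counts without molecular identifiers are not independent molecules.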

Additional observations from a re-analysis of the deposited data

Results flagged for a closer look

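Of 96 sets of 6 libraries examined (the 8 genes, their sum, 14 lists and the total count, in 4 groups), 17 had a library farther from the others than Dixon's limit for 6 values allows, whereas chance gives about 4.8. The sets overlap, since 11 of the 17 are values of OVX C5 or TAM C35.

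Among the 8 genes, S100b in OVX was highest in C2 at 77.8 CPM (61.4 to 67.2 in the others). In E4, Mbp was highest in C39 at 1122 CPM (399 to 603), Fabp7 was highest in C38 at 259 CPM (163 to 191), and Cdh19 was lowest in C20 at 101 CPM (149 to 172). In TAM, Fabp7 was lowest in C35 at 17.0 CPM (170 to 242). In the lists, given as mean log2(CPM + 0.5), OVX C5 was the lowest of its group for sympathetic neuron genes (1.74 against 6.89 to 7.93), the neurotrophin pathway (3.61 against 4.30 to 4.64) and the neuregulin and ErbB pathway (3.81 against 4.44 to 4.79), and the highest for melanocyte genes (0.63 against 0.38 to 0.47).

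TAM C35 was the lowest of its group for sympathetic neuron genes (3.92 against 7.83 to 8.31), other glial genes (5.31 against 6.14 to 6.38), the neurotrophin pathway (4.13 against 4.70 to 4.82), the neuregulin and ErbB pathway (4.22 against 4.72 to 4.89) and neural crest genes (1.75 against 1.96 to 1.99). It was the highest for smooth muscle genes (9.94 against 8.47 to 8.97). E4 C39 was the highest of its group for endothelial genes (6.57 against 5.90 to 6.14), and E4 C38 had the lowest total count of its group, 24647246 against 37505055 to 44224858.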

How the results depend on the processing

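Of 470 values recomputed under the alternatives that keep or drop whole sets of libraries or change a setting, 442 kept their direction and their side of the threshold, and of 792 recomputed without 1 library each, 760 did. The number of the 8 genes called in E4 against OVX was 1, and it was 2 with no fold threshold (Foxd3 and Sox10), 0 in the first and 0 in the second number series alone and 0 with the sympathetic neuron list as a covariate. The fits of a single series held only 2 to 4 libraries per group. Past a log2 fold change of 1 in E4 against E2 were 3 genes in the first series, 2 in the second and 2 with the covariate, in place of 1. In TAM against E2, 1 gene was called with no fold threshold, 1 with the number series as a covariate and 1 in the first series alone, in place of 0, each time Foxd3, which was chosen on these E2 libraries, so that nothing is read from these counts. Without 1 library each, these 3 counts were 0 to 1 (0 without OVX C3), 1 to 2 (2 without any one of E2 C9, C26 and C29 and E4 C16, C19, C20 and C36) and 0 to 1 (1 without E2 C29, TAM C13 or TAM C32). The cause was not tested.

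Some values changed sign, most of them small in the fit of 24 libraries, the exceptions with over 0.3 on the log2 scale being Ngfr in E2 against OVX (0.34) and in TAM against OVX (0.63) and Fabp7 in E4 against E2 (0.33, and -0.31 with the neuron covariate). Ngfr and Fabp7 also changed sign in TAM against E2, to -0.73 and -0.36 in the second series and to -0.047 and -0.13 with the neuron covariate. The second series holds TAM C35, and without OVX C5 and TAM C35 these 2 genes were at 0.55 and 0.42. In TAM against E4, Mbp, S100b, Fabp7 and Cdh19 changed sign in the first series (0.030 to 0.20) and Fabp7 and Cdh19 with the covariate (0.18 and 0.036). In E2 against OVX, Sox10 was at 0.13 in the second series and Ngfr at -0.013 in the first. In E4 against OVX they were S100b at 0.000401 with RLE size factors, 0.19 in the second series and 0.000356 with DESeq2, and Fabp7 at 0.00269 with the series as a covariate and 0.18 in the second series. Cdh19 in that comparison was at -0.039 with library totals alone, -0.018 with the series as a covariate, -0.016 and -0.045 in the first and the second series, -0.053 without OVX C5 and TAM C35 and -0.12 with the neuron covariate. In TAM against OVX, Ngfr was at -0.33 and S100b at 0.044 in the second series, which holds TAM C35. Fabp7 was at 0.054 and Cdh19 at 0.050 in the first, which holds OVX C5. Without 1 library each, Sox10 in E2 against OVX ranged from -0.18 to 0.14. In E4 against OVX the ranges were -0.13 to 0.038 for S100b, -0.27 to 0.14 for Fabp7 and -0.058 to 0.10 for Cdh19. In TAM against OVX they were -0.053 to 0.037 for S100b, -0.42 to 0.072 for Fabp7 and -0.097 to 0.064 for Cdh19.

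No paired analysis was possible because the groups compared share no animal numbers. The smallest count of the 8 genes was 77, and the effect of depth was not tested.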
